A study of Mus musculus with 12 samples.

Results

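The taste transduction genes of tuft cells were followed in sorted crypt cells of the mouse small intestine. They are Sucnr1, Gnat3, Gnb3, Gng13, Plcb2, Plcg2, Pik3cg, Itpr3, Trpm5 and Rgs13, and they were taken by gene symbol from a table of read counts per gene, in which each of the 10 has 1 row among 55414. The set was chosen by results already known from these same 12 libraries, in which transcripts of tuft cells differed between the groups. Every difference of a member between groups is therefore given as a description and supports nothing by itself, and no p-value is given for it.

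The RNA-seq data are 12 libraries in 4 groups of 3, from untreated C57BL/6J mice that the methods give as 8 to 12 weeks old. Crypt cells were sorted into Paneth cells (PCs), the antimicrobial secretory cells of the crypt base, and non-Paneth cells (non-PCs), and both sorts were made from wild-type mice (WT) and from mice labelled GRKO or GRvillinKO, in which Nr3c1, the gene of the glucocorticoid receptor, is deleted with a Cre driven by the villin promoter and thus in the intestinal epithelium. The PC gate took CD24+ cKIT+ events of medium or high side scatter without the blood and vessel antigens CD31, CD45 and TER119. The sources used here give neither the gate of the non-PCs nor the number of mice behind each library, so the errors below measure the spread between these libraries, which may be technical. The genotype of a library was read from its title, since the genotype field of the records calls every PC library WT and every non-PC library GRKO. Libraries held 11126297 to 15910292 counts.

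The titles and the data went together. Nr3c1 stood at 4.73 to 12.1 CPM (counts scaled to a common library total) in GRKO PCs against 33.0 to 41.1 CPM in WT PCs, and at 19.6 to 36.2 CPM in GRKO non-PCs against 135 to 159.5 CPM in WT non-PCs. The 7 Paneth cell markers, led by Defa24, Lyz1 and Defa30, summed to at least 356800 CPM in the PC libraries and to at most 1690 CPM in the non-PC libraries. Tuft cells were not a sorted population of the study, so the levels of the 10 genes are those of RNA from whatever tuft or other cells entered each sort. In such bulk libraries, fewer tuft cells and less RNA per tuft cell cannot be told apart. Because the non-PC gate is unknown, a difference between the sorts of 1 genotype and a difference in gating cannot be told apart either.

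Tuft cells are rare chemosensory cells of the gut epithelium that sense parasites and microbial metabolites with the machinery of taste cells. A ligand binds a G protein-coupled receptor, such as the succinate receptor SUCNR1, and the heterotrimeric G protein with the gustducin alpha subunit (Gnat3), a beta subunit (Gnb3) and a gamma subunit (Gng13) releases its beta-gamma dimer. Phospholipase C beta (Plcb2) then makes inositol trisphosphate, the receptor of this messenger (Itpr3) lets calcium out of the endoplasmic reticulum, and the calcium-gated cation channel TRPM5 depolarizes the cell. RGS13 shortens G protein signals, while PLCG2 and the catalytic subunit of phosphoinositide 3-kinase gamma (Pik3cg) are signalling enzymes best known from leukocytes.

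Since the study deletes a transcription factor, the sequence before the members' starts was searched for 2 sets of letters. These are the octamer ATGCAAAT, bound by POU-domain factors such as POU2F3, the regulator of tuft cell identity, and AGAACA, a half-site of the glucocorticoid receptor, each on both strands. RefSeq promoter windows of 300 bases (250 before the start and 50 after it, mouse build GRCm38.p6) were at hand for 9 of the 10 members. The octamer was found in the windows of Sucnr1 and Itpr3, and it is present in 1.97% of the 27025 genes with a window. The half-site was found in the windows of Plcg2 and Rgs13, and it is present in 21.3% of genes. The 4 windows are shown for the 200 bases before the start, 5′ to 3′ on the strand of the gene, with the letters searched for in capitals. The octamer of Sucnr1 begins 48 bases before the start, and that of Itpr3, on the other strand, begins 27 bases before it. The half-sites, both on the other strand, begin 177 bases before the start of Plcg2 and 40 bases before that of Rgs13. No window held both the octamer and the half-site.
Sucnr1, chr3:60081669-60081868, plus strand, octamer in capitals: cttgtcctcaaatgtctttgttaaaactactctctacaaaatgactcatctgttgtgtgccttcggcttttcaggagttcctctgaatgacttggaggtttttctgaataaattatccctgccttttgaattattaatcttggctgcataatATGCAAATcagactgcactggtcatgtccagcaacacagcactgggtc
Itpr3, chr17:27057104-27057303, plus strand, octamer in capitals: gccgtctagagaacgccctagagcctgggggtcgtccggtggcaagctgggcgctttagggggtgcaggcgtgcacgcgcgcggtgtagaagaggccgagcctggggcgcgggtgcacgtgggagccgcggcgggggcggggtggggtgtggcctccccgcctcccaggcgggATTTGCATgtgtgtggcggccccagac
Plcg2, chr8:117498075-117498274, plus strand, half-site in capitals: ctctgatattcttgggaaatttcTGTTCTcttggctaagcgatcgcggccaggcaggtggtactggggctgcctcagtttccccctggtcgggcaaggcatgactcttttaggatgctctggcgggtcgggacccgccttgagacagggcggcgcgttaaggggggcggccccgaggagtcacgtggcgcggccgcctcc
Rgs13, chr1:144177373-144177572, minus strand, half-site in capitals: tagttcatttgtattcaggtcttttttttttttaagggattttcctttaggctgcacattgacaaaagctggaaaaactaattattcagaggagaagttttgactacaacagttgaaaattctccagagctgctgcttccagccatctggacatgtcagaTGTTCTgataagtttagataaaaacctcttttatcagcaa

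These matches are a description of letters, and no binding was measured. Of the members with a window, Gnat3, Gng13, Pik3cg, Plcb2 and Trpm5 held neither set of letters in it.

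Levels are given in CPM, scaled by the total count of all genes in a library, for replicates 1, 2 and 3 in this order. Positions are those of the GRCm39 mouse genome in the GENCODE vM39 annotation. Each member is a protein-coding gene, and a count covers its exons.

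Sucnr1, the succinate receptor, lies on the plus strand of chromosome 3 from 59989283 to 59994987. Its level was 0, 0.973 and 1.62 CPM in WT PCs and 3.12, 11.1 and 1.26 CPM in GRKO PCs. In non-PCs it was 0.0776, 0.348 and 0 CPM in WT and 1.02, 3.14 and 0.446 CPM in GRKO. GRKO PC replicate 2 stood well above every other library, the WT and GRKO PC libraries overlapped, and the 3 GRKO non-PC libraries lay above the 3 WT ones, which held 6 counts together. A count of 0, as in WT PC replicate 1, allows a level of up to 0.235 CPM by counting error alone.

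Gnat3 encodes the alpha subunit gustducin and lies on the plus strand of chromosome 5 from 18167547 to 18225473. It was among the scarcest members, at 0.0784, 0.325 and 0.539 CPM in WT PCs and 0.799, 4.01 and 0.669 CPM in GRKO PCs. In WT non-PCs it had 1 count in all, in replicate 2, and in GRKO non-PCs it stood at 0.34, 0.817 and 0.191 CPM. The GRKO libraries lay above the WT libraries in both sorts, with GRKO PC replicate 2 far above the rest. The nearest PC libraries, replicate 3 of each genotype, held 9 counts in GRKO and 6 in WT.

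Gnb3, the beta subunit, lies on the minus strand of chromosome 6 from 124811202 to 124817238 and was close to the limit of detection. It had 9 counts in GRKO PCs, 2 in WT PCs, 2 in GRKO non-PCs and 0 in WT non-PCs, where a count of 0 allows a level of up to 0.0704 CPM over the group. It was the 1 member that did not pass the filter on low counts. The ratio of GRKO to WT PCs, 4.08, had a 95% exact interval for counting error of 0.845 to 38.8, so a difference was not detectable at this depth.

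Gng13, the gamma subunit, lies on the plus strand of chromosome 17 from 25936145 to 25938380. Its level was 1.41, 1.78 and 3.77 CPM in WT PCs and 4.24, 6.16 and 1.19 CPM in GRKO PCs, and the 2 groups overlapped. WT non-PCs held 2 counts in 3 libraries, against 1.9, 2.33 and 0.764 CPM in GRKO non-PCs. Of its exonic bases, 43.8% overlap Chtf18 on the opposite strand, and the sources used here do not say which strand was counted. Chtf18, a replication factor subunit, stood at 18.6 to 22.6 CPM in the WT non-PC libraries, each of which held at most 1 count of Gng13. In GRKO non-PCs it stood at 34.4 to 38.4 CPM.

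Plcb2, the phospholipase of the cascade, lies on the minus strand of chromosome 2 from 118537979 to 118559111. It was measured at 12.6, 12.3 and 24.9 CPM in WT PCs and 37.5, 64.4 and 22.1 CPM in GRKO PCs. WT non-PCs held 0.31, 0.487 and 0.13 CPM, and GRKO non-PCs held 18.6, 27.6 and 6.56 CPM. Each GRKO non-PC library thus exceeded each WT one, while WT PC replicate 3 lay above GRKO PC replicate 3.

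Plcg2, a phospholipase that tyrosine kinases switch on, lies on the plus strand of chromosome 8 from 118224988 to 118361881. Unlike Plcb2 it was present in WT non-PCs, at 24.8, 29.1 and 27.5 CPM. WT PCs had 20.8, 27.1 and 39.8 CPM, so the WT sorts overlapped in CPM. With the scaling of the tests below, it was higher in WT PCs by 0.82 ± 0.39 (standard error) on the log2 scale, short of the threshold. GRKO PCs stood at 78.4, 135 and 48.9 CPM and GRKO non-PCs at 77.7, 77.4 and 43.3 CPM. Every GRKO library lay above every WT library of the same sort.

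Pik3cg, the catalytic subunit that beta-gamma dimers activate, lies on the minus strand of chromosome 12 from 32223472 to 32258659. WT PCs had 7.68, 11.4 and 22.7 CPM and GRKO PCs had 39.2, 69.9 and 22.7 CPM. WT non-PCs had 0, 0.835 and 0.13 CPM and GRKO non-PCs 23, 28.5 and 6.62 CPM. As for Plcb2, the lowest GRKO PC library and the highest WT PC library overlapped, at 22.69 and 22.74 CPM, and the non-PC groups did not.

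Itpr3, the calcium release channel, lies on the plus strand of chromosome 17 from 27275971 to 27343866, with 8.15% of its exonic bases also in genes of the other strand. It was the only member with a higher mean CPM in non-PCs than in PCs in both genotypes. WT non-PCs held 230.1, 243 and 242 CPM and GRKO non-PCs 370.5, 291 and 282 CPM, both above the 105, 81.8 and 84 CPM of WT PCs and the 76.5, 127 and 109.7 CPM of GRKO PCs. The 2 PC groups overlapped.

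Trpm5, the channel that ends the cascade and a standard marker of tuft cells, lies on the minus strand of chromosome 7 from 142622890 to 142648379. It stood at 59.6, 81.4 and 116 CPM in WT PCs and 201, 280.5 and 108 CPM in GRKO PCs. In WT non-PCs it stood at 1.94, 3.83 and 4.95 CPM and in GRKO non-PCs at 80.1, 121 and 29.7 CPM. Even the lowest GRKO non-PC library, at 29.7 CPM, was far above the highest WT one, at 4.95 CPM, whereas GRKO PC replicate 3 lay below WT PC replicate 3.

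Rgs13, which speeds the shut-off of G proteins, lies on the minus strand of chromosome 1 from 144014392 to 144053110. WT PCs had 19.6, 32.5 and 51.4 CPM and GRKO PCs 55.2, 88.4 and 33.5 CPM. WT non-PCs had 0.698, 1.18 and 0.26 CPM and GRKO non-PCs 22.4, 41.9 and 7.51 CPM. The order of the groups was that of Trpm5, with overlap in the PCs and none in the non-PCs.

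**Figure D1:**
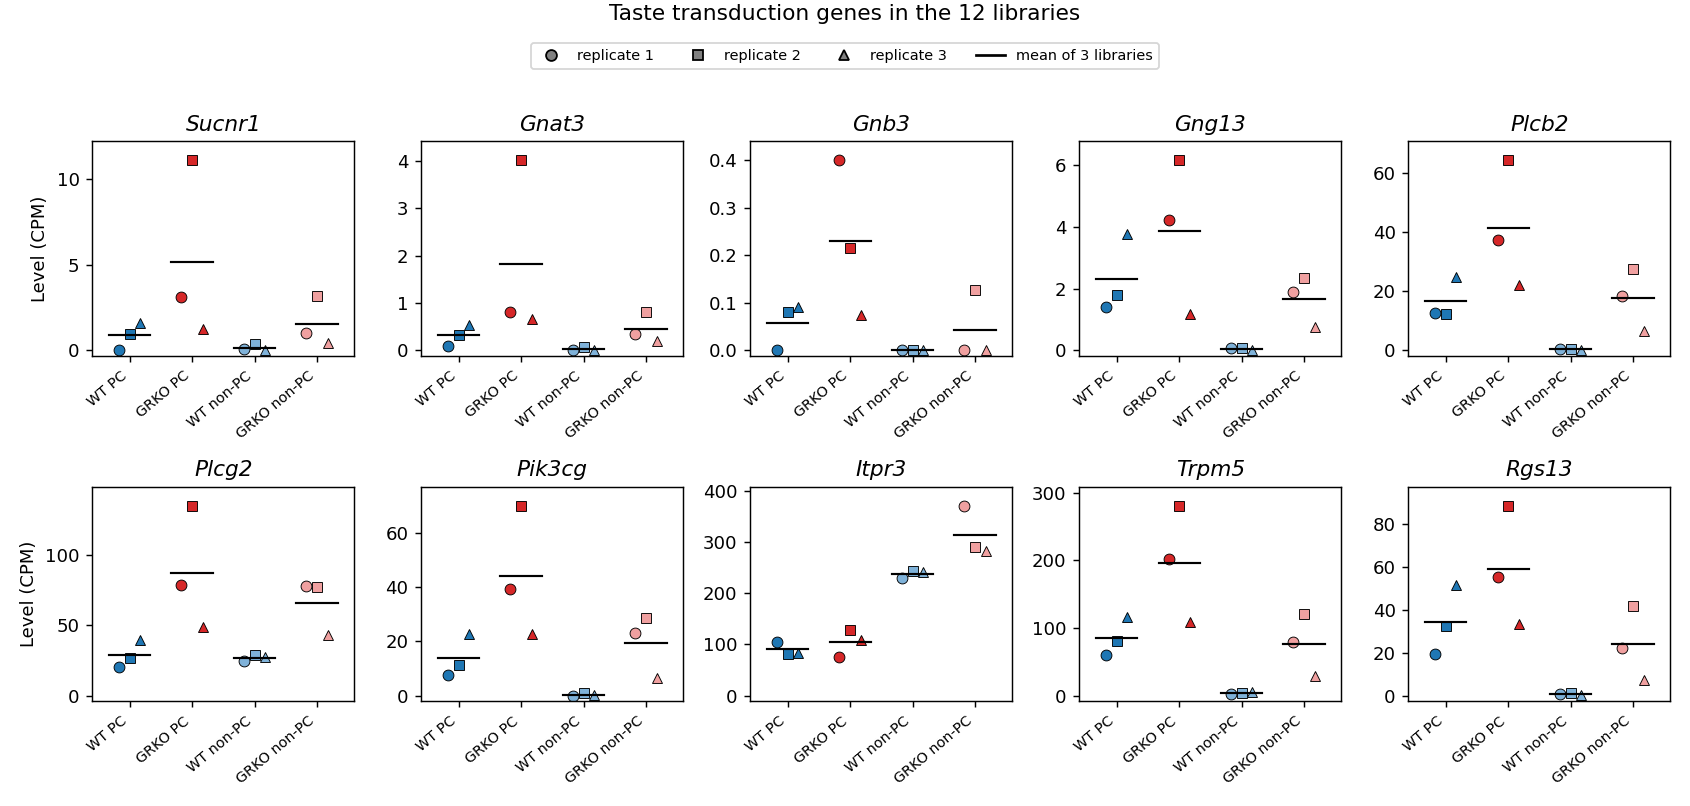
Level in CPM (linear axis from 0, a scale of its own for each gene) of the 10 members in the 12 libraries, grouped by genotype and sort, with the marker shape giving the replicate number and a bar at the mean of 3 libraries. Trpm5 was at 1.94 to 4.95 CPM in WT non-PCs and at 29.7 CPM or more in each of the other libraries, while Itpr3 was highest in the non-PCs.

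In each group most members were highest in the same replicate. In GRKO PCs replicate 2 was the highest of the 3 libraries for 9 of the 9 members that passed the filter on low counts, and replicate 3 was the lowest for 8 of them. In GRKO non-PCs replicate 2 was the highest for 7 and replicate 3 the lowest for 9. In WT PCs replicate 3 was the highest for 8 and replicate 1 the lowest for 7. In these 3 groups the summed level of the 25 other tuft cell markers was highest in the same replicate, at 725.5 to 2093 CPM in GRKO PCs, 287.7 to 964.2 CPM in GRKO non-PCs and 286.8 to 742.4 CPM in WT PCs, with replicate 2 highest in both GRKO groups and replicate 3 highest in WT PCs. In WT non-PCs replicate 2 was the highest for 7 of the 9 members, while the summed markers, with Espn as most of the sum, were highest in replicate 1 (257.9, 250.7 and 228.6 CPM). How many of all genes share these orders was not counted. Genes outside the set could share them, as Gnb1 (157.9, 235.8 and 185.7 CPM) and Epcam (628.1, 776.5 and 702.3 CPM) were also highest in GRKO PC replicate 2. Lyz1 was lowest there (118800, 97540 and 162500 CPM). The part of the amount of tuft cell RNA, or of the make-up of a library, in the spread of the members was not tested.

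To compare genes with each other, CPM were divided by the exonic length of each gene in kb. In WT PCs Rgs13 was first, at 20.9 ± 9.67 CPM per kb (SD, n = 3), and Trpm5 was next, at 13.4 ± 4.46, and their libraries overlapped. Itpr3 with 7.54 and Plcg2 with 6.70 CPM per kb came after them and overlapped as well, followed by Plcb2, Gng13, Pik3cg and Sucnr1, from 2.44 down to 0.524 CPM per kb, each of which overlapped the next. Gnat3 with 0.157 and Gnb3 with 0.0173 CPM per kb were last. GRKO PCs had the same 2 genes first and the same 3 genes last, with Rgs13 at 35.7 ± 16.7 and Trpm5 at 30.7 ± 13.5 CPM per kb.

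The non-PCs had another order. In WT non-PCs Itpr3 was first, at 19.9 ± 0.592 CPM per kb, and Plcg2 was next, at 6.21 ± 0.502, and each of their libraries exceeded those of the genes ranked after them. The other 8 members lay at or below 0.558 CPM per kb, the mean of Trpm5, and neighbours among them overlapped. In GRKO non-PCs Itpr3 was again first, at 26.2 ± 4.06 CPM per kb, but Plcg2 with 15.2 ± 4.53, Rgs13 with 14.5 ± 10.4 and Trpm5 with 12.04 ± 7.18 CPM per kb overlapped each other in this order.

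Differences were tested by the quasi-likelihood method of edgeR, scaled by TMM and fitted once to the 12 libraries, for the 13057 genes with enough counts. A gene is called when it passes a false discovery rate of 5% over those genes. Log2 fold changes are given with their standard error (SE) on the TMM scale, on which the median of all genes was close to 0, between −0.08 and 0.03 in these comparisons. Of the members, 9 were tested. They passed the filter through the groups in which they are high, so that their counts and medians describe them and are no support. The comparisons share libraries with each other, so their values are set side by side and not taken as separate evidence.

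In WT mice, PCs were set against non-PCs to ask which sort carried the cascade. Of the 9 members tested, 6 were called higher in PCs and 1, Itpr3, was called lower, where 24.0% of all genes tested were called higher and 26.7% lower. The median log2 fold change was 5.28 over the members tested and 0.01 over all genes. Trpm5 was higher by 5.28 ± 0.69, Rgs13 by 6.31 ± 0.93, Plcb2 by 6.41 ± 0.88 and Pik3cg by 6.07 ± 1.07 on the log2 scale. Itpr3 had −0.7 ± 0.14.

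The G protein subunits rest on few counts in WT non-PCs. For Gng13, with 82 counts against 2, the log2 fold change was 6.04 ± 0.94, and the ratio of CPM was 48.3, with a 95% exact interval for counting error of 12.9 to 405. For Gnat3, with 11 counts against 1, the log2 fold change was 3.93 ± 1.43 and the ratio 13, with an interval of 1.88 to 557. Gnat3 was no longer called without WT PC replicate 2 or 3, or without WT non-PC replicate 1 or 3. Sucnr1 (3.22 ± 1.6) and Plcg2 (0.82 ± 0.39) were not called, but with the replicate number as a block, which pairs the WT libraries, they were called at 3.28 and 0.77. In the 3 WT libraries of each sort, 6 of the 9 members tested were higher in every PC library than in every non-PC library, and this held for 9.60% of all genes. For Gnat3 the nearest libraries, PC replicate 1 and non-PC replicate 2, held 1 count each.

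Among the GRKO libraries the sorts lay closer together. Of the 9 members tested, 7 were called higher in PCs and Itpr3 was called lower, where 18.0% of all genes were called higher and 21.2% lower. The median was 2.21 over the members tested and −0.08 over all genes. Trpm5 was higher in PCs by 2.34 ± 0.57 on the log2 scale, Plcb2 by 2.21 ± 0.55, Rgs13 by 2.28 ± 0.64, Pik3cg by 2.15 ± 0.67, Gng13 by 2.19 ± 0.56, Gnat3 by 2.93 ± 0.72 and Plcg2 by 1.37 ± 0.38. Itpr3 had −0.63 ± 0.14, and Sucnr1, at 2.68 ± 1.01, was not called.

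In CPM the GRKO sorts overlapped for every member but Itpr3. No member was higher in every GRKO PC library than in every GRKO non-PC library, against 6.10% of all genes, since GRKO PC replicate 3 lay below the highest GRKO non-PC library throughout. Without GRKO PC replicate 2 the count of members called was 4 in place of 8, and with scaling by library totals alone it was also 4, with 3 higher and 1 lower. Scaling by totals moved the median of all genes to −1.05 in the GRKO sorts and to −0.68 in the WT sorts. A change of scaling shifts all genes by nearly the same amount, so the place of a member relative to the median cannot test it. By that scaling 816 of all genes were called higher and 9968 lower in GRKO PCs, and 1097 higher and 7892 lower in WT PCs.

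Between genotypes, PCs were compared to see whether the levels differed with the deletion. None of the 9 members tested was called, where 1.71% of all genes were called higher in GRKO and 1.52% lower. At an unadjusted p below 0.05 there were 5, beside 3494 of the 13057 genes tested, and DESeq2 called 1, Plcg2, beside 1464 of 11893 genes. The 9 log2 fold changes lay between 0.18 ± 0.14 for Itpr3 and 2.53 ± 1.1 for Sucnr1, with a median of 1.3 against 0.03 for all genes. Plcg2 had 1.55 ± 0.38, Trpm5 1.17 ± 0.55, Pik3cg 1.63 ± 0.67 and Rgs13 0.74 ± 0.62. Gnat3 and Plcg2, 2 of the 9, were higher in every GRKO library than in every WT library, as were 8.24% of all genes. For Gnat3 this rests on 9 counts in GRKO replicate 3 against 6 in WT replicate 3.

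The count over all genes depended on single libraries here. Of all genes 421 were called, and between 0 (without GRKO PC replicate 2) and 1618 (without GRKO PC replicate 1) when each library was left out in turn. There were 37 without GRKO PC replicate 3, 1 without WT PC replicate 1 and 86 without WT PC replicate 2. Of the members, Gnat3 was called without GRKO PC replicate 1 and Plcg2 without GRKO PC replicate 3. With no filter on low counts 7 members were called, beside 1780 of 24077 genes. That fit gave smaller errors, as for Plcb2 between the WT sorts, with an SE of 0.28 in place of 0.88.

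The non-PCs gave larger differences between the genotypes. Of the 9 members tested, 5 were called higher in GRKO and none lower, where 17.5% of all genes were called higher and 19.8% lower. The median was 4.12 over the members tested and 0.02 over all genes. Trpm5 was higher in GRKO by 4.12 ± 0.67 on the log2 scale, Plcb2 by 5.51 ± 0.88, Pik3cg by 5.55 ± 1.06, Rgs13 by 4.77 ± 0.93 and Gng13 by 4.58 ± 0.99. These 5 were called in each of the 14 alternatives, which include each library left out. For Gng13, with 77 counts against 2, the ratio of CPM was 35.4, with a 95% exact interval for counting error of 9.48 to 298.

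The other 4 members tested were not called. Gnat3 had 3.49 ± 1.34, and its 21 counts against 1 gave a ratio of 19.3, with an interval of 3.11 to 799. Sucnr1 had 3.07 ± 1.49, Plcg2 1.0 ± 0.38 and Itpr3 0.11 ± 0.14. DESeq2 called 7 of the 9, Gnat3 and Plcg2 being added. In CPM, 9 of the 9 were higher in every GRKO library than in every WT library, but so were 47.3% of all genes, because scaling by totals moved the median of all genes to 0.31, with 4348 genes called higher and 1478 lower. By that scaling Itpr3 was higher by 0.40, close to this median. Among the scarce members, GRKO replicate 3 held 7 counts of Sucnr1 and 3 of Gnat3, while WT replicate 2 held 5 and 1.

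**Figure D2:**
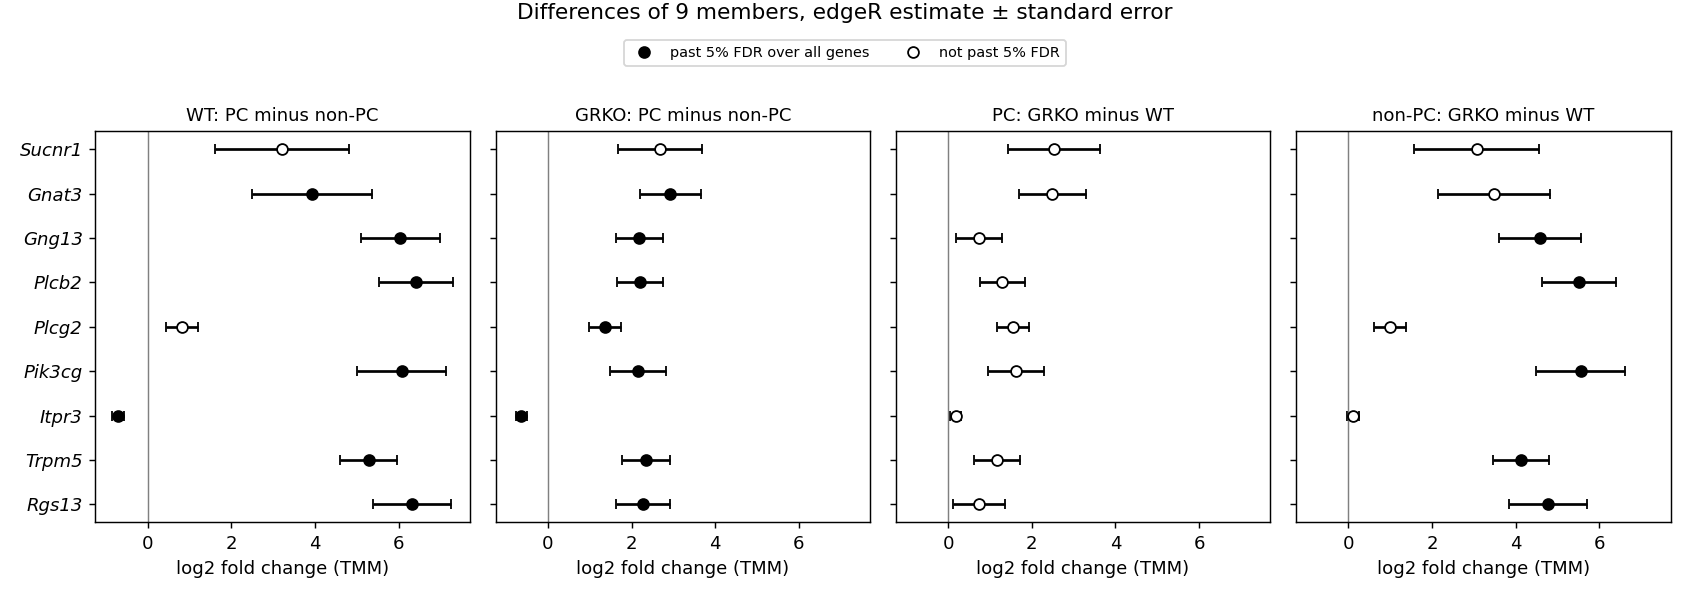
Log2 fold change on the TMM scale (dot) with its standard error (bar) for the 9 members tested, in the 4 comparisons between groups, with filled dots for genes past a false discovery rate of 5% over all genes. In the comparison of WT sorts Plcb2 stood at 6.41 and Itpr3 at −0.70, and in PCs no dot between the genotypes is filled.

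The difference between genotypes was then compared between the sorts, as the interaction of genotype and sort. It was called for 4 of the 9 members tested, each with a smaller effect in PCs than in non-PCs, where 7.28% of all genes were called in this direction and 11.4% in the other. The estimates were −4.21 ± 1.11 for Plcb2, −4.03 ± 1.15 for Rgs13, −3.85 ± 1.2 for Gng13 and −2.95 ± 0.85 for Trpm5. Pik3cg, at −3.92 ± 1.35, was not called, and neither were Gnat3 (−1.0 ± 1.44), Sucnr1 (−0.54 ± 1.79), Plcg2 (0.55 ± 0.53) and Itpr3 (0.07 ± 0.2).

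These 4 calls were close to the threshold. None was made without GRKO non-PC replicate 1 or 2, without WT PC replicate 3 or without any of the 3 WT non-PC libraries, and none at a false discovery rate of 1%. With library totals the same number of members was called, while all genes split into 752 called in the other direction and 1836 in this one. Without any of the GRKO PC libraries, or without WT PC replicate 2, 2 of them were called. Over all alternatives the estimates stayed between −4.72 and −2.45.

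Within a library, the ratio of a member to Trpm5 does not depend on how the library was scaled. For each 100 counts of Trpm5 there were 19.3 ± 3.57 counts of Plcb2 in WT PCs (SD, n = 3), 20.7 ± 2.18 in GRKO PCs and 22.7 ± 0.538 in GRKO non-PCs. Rgs13 had 39.0 ± 5.74, 30.0 ± 2.21 and 29.2 ± 4.71 counts in the same order, and Pik3cg 15.5 ± 3.6, 21.8 ± 2.8 and 24.8 ± 3.4. For Plcb2 the GRKO PC libraries overlapped those of both other groups, while the WT PC libraries, at 21.4 or less, lay below the GRKO non-PC libraries, at 22.1 or more. For Rgs13 the WT PC libraries, at 32.9 or more, lay above the GRKO PC libraries, at 31.5 or less, and for Pik3cg the WT PC libraries, at 19.6 or less, lay below the GRKO non-PC libraries, at 22.3 or more.

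In WT non-PCs, which had 25, 55 and 76 counts of Trpm5, the same ratios were less certain. Plcb2 had 2.63 to 16 counts for each 100 of Trpm5, Rgs13 5.26 to 36 and Pik3cg 0 to 21.8. The lowest of these ratios of Plcb2 and of Rgs13 came from replicate 3. Plcg2 and Itpr3 behaved in another way, with 34.1 ± 0.811 and 117 ± 54.1 counts for each 100 of Trpm5 in WT PCs, 102 ± 41.3 and 551 ± 364 in GRKO non-PCs and 864 ± 371 and 7700 ± 3680 in WT non-PCs. For both, each WT non-PC library exceeded each library of the other 3 groups.

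**Figure D3:**
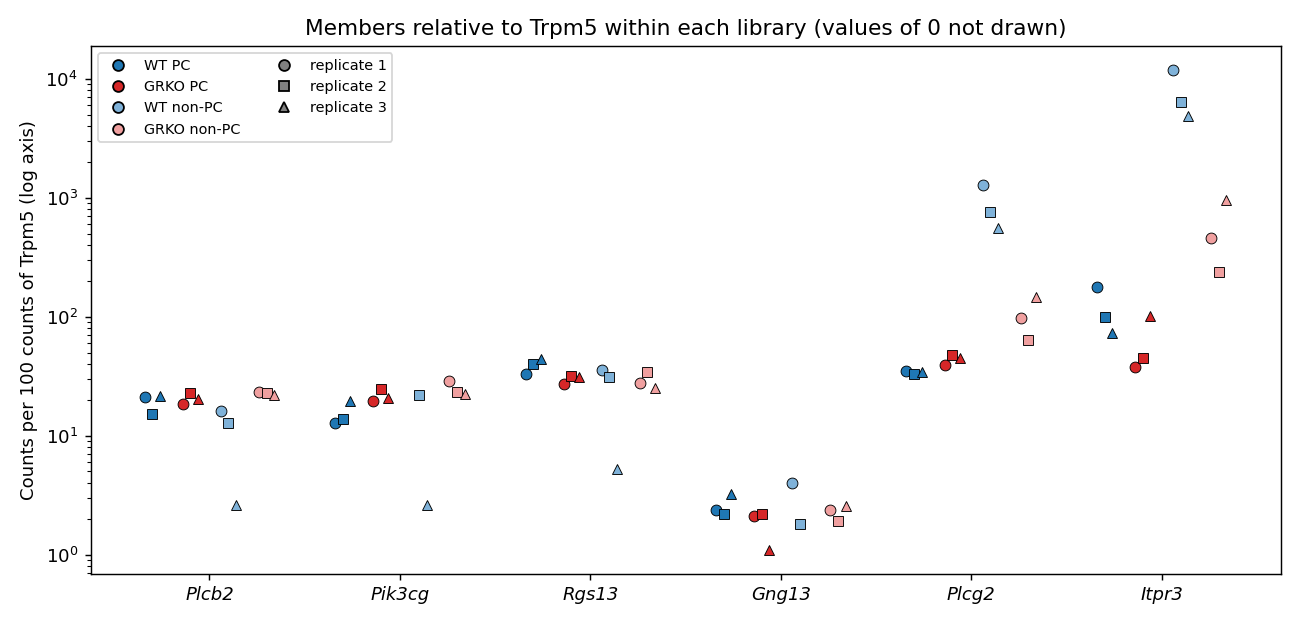
Counts of 6 members for each 100 counts of Trpm5 in the same library (log axis), with color for the group and marker shape for the replicate number, values of 0 left out. Plcb2 lay between 15.1 and 23.2 in the WT PC, GRKO PC and GRKO non-PC libraries, while Itpr3 spread from 38.0 in GRKO PCs to 11900 in WT non-PCs.

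The other genes of the pathway came from lists. Of 15 chemosensory receptors and release channels, 3 passed the filter. Ffar3, a receptor of short-chain fatty acids, had 0 to 0.139 CPM in WT non-PCs, 1.40 to 9.49 in GRKO non-PCs, 2.51 to 7.46 in WT PCs and 3.94 to 19.3 in GRKO PCs. It was called higher in PCs in both genotypes (6.9 ± 1.45 in WT and 2.23 ± 0.75 in GRKO) and higher in GRKO non-PCs than in WT non-PCs (6.22 ± 1.47). Tas1r3, a sweet and umami taste receptor subunit, was at most 2.36 CPM and was called higher in PCs in both genotypes, by 1.65 ± 0.48 and 1.44 ± 0.43 on the log2 scale.

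Trpm4, the close relative of Trpm5, went the other way. It stood at 221 to 298 CPM in WT non-PCs, 117 to 124 in GRKO non-PCs, 45.2 to 71.6 in WT PCs and 42.4 to 56.5 in GRKO PCs, and it was called lower in GRKO than in WT non-PCs (−1.41 ± 0.15). The bitter taste receptors Tas2r105, Tas2r117, Tas2r136 and Tas2r143, the release channel subunit Calhm1 and the regulator Rgs21 had 0 counts in the 12 libraries.

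Paralogs of the members did not share their pattern as a group. Of 33, 25 passed the filter, and in non-PCs 4 were called higher in GRKO (Gnai1, Gng4, Gng7 and Rgs19) and 5 lower (Gnb1, Gng11, Gng12, Itpr1 and Rgs14), with a median log2 fold change of −0.03. These counts were near the share of all genes tested, of which 17.5% were called higher and 19.8% lower. In PCs none was called between the genotypes. The most abundant 3 over the 12 libraries were Plcb3, at 826 to 857 CPM in WT and 957 to 1099 CPM in GRKO non-PCs, Gnb1, at 573 to 626 and 524 to 541 CPM, and Gnb2, at 249 to 276 and 309 to 336 CPM. The log2 fold change of GRKO against WT non-PCs was 0.0 ± 0.13 for Plcb3 and −0.47 ± 0.11 for Gnb1. Beta subunit transcripts were thus present at 118 CPM or more in every library for Gnb1 and Gnb2, while Gnb3 had 13 counts in the 12 libraries together.

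Partners of Plcg2 and of phosphoinositide 3-kinase gamma were nearer to the members. Of 9, 8 passed the filter, and 4 were called higher in GRKO than in WT non-PCs, among them Pik3r5, the regulatory subunit of the kinase (5.28 ± 0.88), the phosphatase Inpp5d (4.56 ± 0.85) and the exchange factor Vav1 (2.56 ± 0.68). The same 4 partners were called higher in PCs than in non-PCs in WT, where Lyn and Syk were called lower. Over all genes tested, 17.5% were called higher in GRKO non-PCs. Between the WT sorts 24.0% were called higher in PCs and 26.7% lower. Pik3r5 stood at 0.195 to 1.88 CPM in WT non-PCs, 15.6 to 58.5 in GRKO non-PCs, 24.2 to 54.9 in WT PCs and 51.4 to 147 in GRKO PCs. Lyn was more even, at 17.6 to 76.9 CPM over the 12 libraries, and Pik3r6, the other regulatory subunit, had 0 counts.

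Markers of tuft cells outside the cascade moved with the members. Of 25, 23 were tested, and 22 were called higher in PCs than in non-PCs in WT, 21 in GRKO, none between the genotypes in PCs and 19 higher in GRKO than in WT non-PCs. Over all genes tested, 24.0%, 18.0%, 1.71% and 17.5% were called higher in these comparisons. Espn was called lower in PCs than in non-PCs in WT (−2.02 ± 0.24). The medians of the 23 markers were 5.56, 2.26, 1.38 and 4.73 on the log2 scale, beside 5.28, 2.21, 1.3 and 4.12 for the members tested. Dclk1, a kinase used to stain tuft cells, stood at 0.543, 3.62 and 0.781 CPM in WT non-PCs, 92, 136 and 30.8 in GRKO non-PCs, 28.5, 64.8 and 104 in WT PCs and 163, 309.8 and 109 in GRKO PCs. Kctd12, a potassium channel tetramerization domain protein, stood at 8.52 to 15.5 CPM in WT and 59.99 to 213 CPM in GRKO non-PCs. Pou2f3 stood at 0.0776 to 0.556 CPM in WT non-PCs and 8.60 to 23.3 in GRKO non-PCs. The summed level of the list was 228.6 to 257.9 CPM in WT non-PCs, of which 209.5 to 235 CPM were Espn, an actin-bundling protein that enterocytes also express and that was called lower in GRKO non-PCs (−1.97 ± 0.23).

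Cd24a and Kit, the genes of the antigens that the PC gate requires, differed as well. In non-PCs Cd24a was 145, 145 and 139.5 CPM in WT and 429.5, 606 and 361 CPM in GRKO, and Kit, which encodes cKIT, was 14, 13.3 and 9.3 and 45.7, 62.5 and 22.8 CPM. Both were called higher in GRKO (1.41 ± 0.2 and 1.55 ± 0.35). Epcam, a marker of all epithelial cells, went the other way and was called lower in GRKO non-PCs (−0.42 ± 0.12) and lower in PCs than in non-PCs in WT (−0.8 ± 0.12) and GRKO (−0.4 ± 0.12). Within each genotype the PC library with the most Trpm5 also had the most Cd24a and Kit, with GRKO PC replicate 2 at 1984 and 221 CPM. The rest of the GRKO PCs did not keep this order, since replicate 3 had less Trpm5 than replicate 1 but more Cd24a (1637 against 1497 CPM) and more Kit (166 against 145 CPM). Ptprc, which encodes the CD45 that the PC gate excludes, was 0.195 to 0.487 CPM in WT non-PCs, 0.446 to 9.11 in GRKO non-PCs, 0.235 to 4.31 in WT PCs and 1.64 to 23.3 in GRKO PCs, and it was called in none of the comparisons. The part of the sort in the members' differences was not tested.

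**Figure D4:**
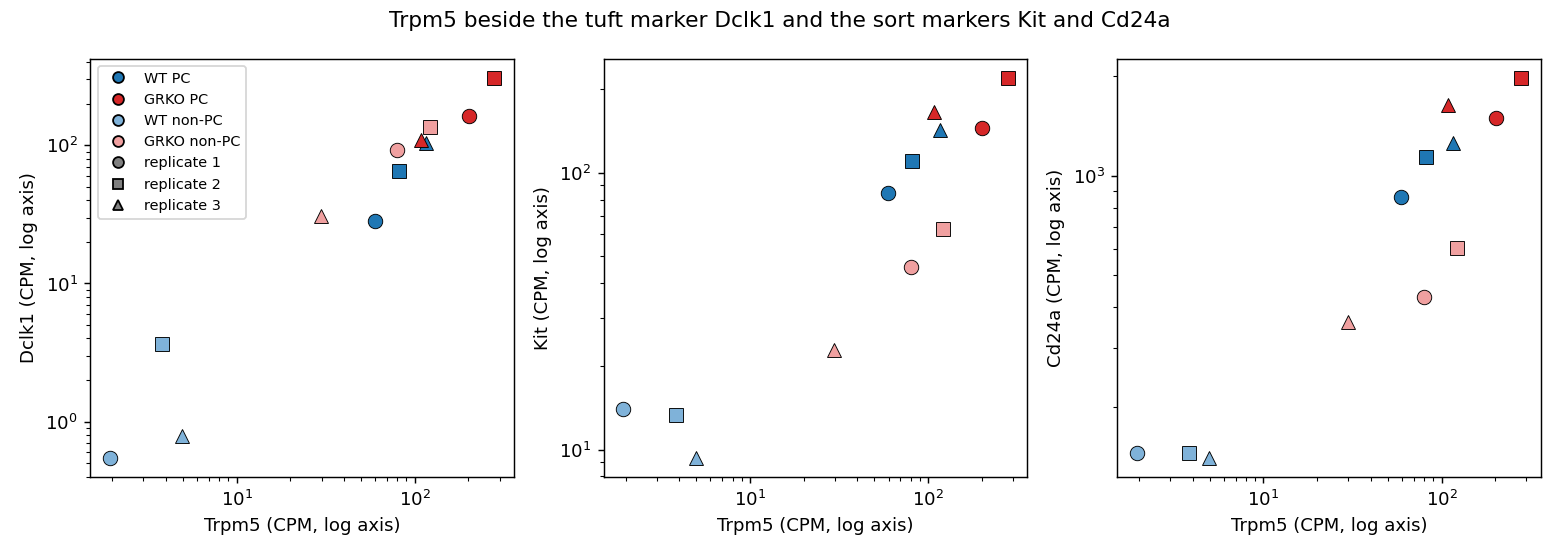
Level of the tuft cell marker Dclk1 and of the sort markers Kit and Cd24a against the level of Trpm5 in the 12 libraries (CPM, both axes log), with color for the group and marker shape for the replicate number. WT non-PCs sit apart at the lower left, with Trpm5 at 4.95 CPM or less and Kit at 14.0 CPM or less, and GRKO non-PCs sit between them and the PCs in Kit and Cd24a.

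Among other cell types, the summed markers of enterocytes and of stem cells separated the non-PC groups. Those of Paneth, goblet and enteroendocrine cells overlapped between them. These sums are CPM scaled by library totals, a scale on which genes in general lay higher in GRKO non-PCs, by a median of 0.31 (log2). The summed level of 8 enterocyte markers, led by Apoa1, Fabp2 and Anpep, was 33080 to 34250 CPM in WT and 8200 to 10230 CPM in GRKO non-PCs, and 4 of them were called lower in GRKO (Anpep, Fabp1, Fabp2 and Vil1). The 5 stem cell markers, led by Olfm4, Smoc2 and Axin2, summed to 4140 to 5713 CPM in WT and 6516 to 8552 CPM in GRKO non-PCs, with 3 called higher (Ascl2, Lgr5 and Smoc2). Of the 7 Paneth markers 1, Ang4, was called higher in GRKO non-PCs. Goblet markers, of which Spink4, Fcgbp and Zg16 were the most abundant over the 12 libraries and Spink4 the least abundant in the non-PCs, summed to 8664 to 18070 CPM in WT and 8885 to 12790 CPM in GRKO non-PCs, and enteroendocrine markers, led by Chgb, Chga and Gcg, to 272.2 to 729.1 and 554.6 to 852.0 CPM. Among the 7 goblet markers, Muc2 (−1.24 ± 0.32) and Tff3 (−1.03 ± 0.32) were called lower in GRKO non-PCs. Among the 9 enteroendocrine markers, Ghrl was called higher (2.49 ± 0.76). Over all genes tested, 17.5% were called higher in this comparison and 19.8% lower. Whether the make-up of the non-PC sort carries the difference of the members was not tested.

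Plcg2, Pik3cg and Rgs13 are also expressed by leukocytes. The 2 lists of lymphocyte markers and of myeloid and mast cell markers were low in the libraries, while Ptprc reached 23.3 CPM in GRKO PC replicate 2. The 8 T and B cell markers summed to at most 3.62 CPM in any library, Jchain having the most, with Cd3e at 0.696 CPM or less. The 8 markers of myeloid and mast cells summed to at most 7.93 CPM, and Cpa3, a protease of mast cells, had 0 counts in the 12 libraries. In GRKO non-PCs the lymphocyte markers summed to 0.191 to 1.97 CPM and in WT non-PCs to 1.94 to 3.62 CPM. Ptprc was higher in GRKO than in WT non-PCs in 2 of the 3 GRKO libraries, at the values given above. In GRKO PCs it stood at 12.55, 23.3 and 1.64 CPM. In WT PCs and in both GRKO groups it was highest in the replicate with the highest summed level of the other tuft cell markers. The part of leukocytes in the levels of these members was not tested.

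The genes most like the members were then sought by Pearson's correlation of log2 CPM over the 12 libraries with the mean of the 9 members tested. The libraries fall into 4 groups and share their depth and composition across genes, so the values are a description. The 10 genes with the highest values were Fyb1 (0.997), Siglecf, Strip2, Mcub, Kctd12 and Itprid1 (at least 0.994 each), Ffar3 and Inpp5d (0.992 each), and Ptgs1 and Vav1 (0.991 each). Siglecf, a lectin known from eosinophils, is on the list of other tuft cell markers, as are Fyb1, Kctd12 and Ptgs1. Siglecf stood at a mean of 0.164 CPM in WT non-PCs. Its means were 13.7, 9.28 and 36.8 CPM in GRKO non-PCs, WT PCs and GRKO PCs. Mcub, a subunit of the mitochondrial calcium uniporter, and Strip2 and Itprid1 were on none of the lists.

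With the group means removed, the 10 highest included Siglecf (0.988), Avil (0.983), Vav1 and Fyb1 (0.975 each), Pygl (0.974), Strip2 (0.970), Mcub (0.968), and Cd47 and Kctd12 (0.965 each). Of the 10, 6 were also among the 10 highest over the libraries. Cd47, a broadly expressed signal against phagocytosis, had 0.965 within groups but −0.678 over the 12 libraries. The members themselves had values from 0.884 for Sucnr1 to 0.984 for Pik3cg over the 12 libraries, except for Itpr3, with −0.546 over the libraries and 0.098 within groups. Each member is part of the mean it was set against, which raises its value, so these values are not comparable with those of other genes.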

How the data were processed

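RNA was sequenced from sorted Paneth and non-Paneth cells of WT and GRKO mice, 3 libraries each. The authors deposited 1 table of raw counts per gene, made from single-end stranded reads with Trimmomatic 0.39 and STAR 2.7.10a on the mm39 genome, where a read counts if it maps uniquely and within 1 gene. Reads shared by near-identical genes are thus lost. The counted strand is not stated. The submitters' notes also name FastQC and DESeq2. The labels name no batch. They and the study's methods name different RNA kits.

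Genes were named from GENCODE vM39 (98.8% of 55414 matched). Tests of the counts used edgeR (version 4.0.16, under R 4.3.3; filterByExpr, TMM, robust quasi-likelihood, Benjamini-Hochberg adjustment), and DESeq2 1.42.0 was an alternative. The SE is the log2 fold change divided by the root of the F statistic. The code was tested on simulated data. Intervals and the limit that a count of 0 allows (3 counts) cover counting error only. Totals of 11126297 to 15910292 counts set the precision of scarce genes. No pair of libraries of a group agreed within sampling noise (chi-square per degree of freedom of at least 12.4), so each counts once.

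The members and all gene lists were chosen with earlier results of these data known. Named were the members, the 3 most abundant genes of each list, the defining markers of cell types near 0, Nr3c1, and the 10 genes most correlated with the mean of the 9 members tested (log2 CPM, prior count 2), over 12 libraries and within groups. The other genes that are named were chosen after their values were seen, and 1 gene that this rule names is not reported here. Same-numbered WT Paneth and non-Paneth libraries deviated together (correlations of 0.349, 0.229 and 0.238, all over 0.1), so the numbers were taken to pair them. Libraries of unlike numbers were not compared, so it was not tested whether the numbers mark pairs. The main fit used no block. This pairing comes from the data and not from the labels. Alternatives were RLE factors, library totals, scaling without Lyz1 and Defa genes, DESeq2, no filter, the groups of a comparison alone, a 1% false discovery rate, a replicate block, and each library left out in turn.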

Additional observations from a re-analysis of the deposited data

Results flagged for a closer look

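The difference between the genotypes differed between the sorts for 4 members by the test of the interaction. On the log2 scale, the difference in PCs minus that in non-PCs was −3.85 for Gng13, −4.21 for Plcb2, −4.03 for Rgs13 and −2.95 for Trpm5. Gng13 rests on 2 counts in WT non-PCs. Over all genes tested, 7.28% were called in this direction and 11.4% in the other. None of the 4 was called at a false discovery rate of 1%, and with some libraries left out none was called either. Among the 23 other tuft cell markers tested, 6 were called in the same direction, namely Avil, Gfi1b, Hpgds, Irag2, Nebl and Pou2f3. Espn, 1 of the 23, was called in the other direction (2.51 ± 0.33). Cd24a and Kit, the genes of the antigens that the PC gate requires, had estimates in the same direction and were not called. They were at −0.8 ± 0.28 (SE) for Cd24a and −0.93 ± 0.48 for Kit. Cd24a fell just short of the threshold (adjusted p of 0.0583 by edgeR). The part of the sort in these values was not tested.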

How the results depend on the processing

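Of 668 values of 45 member differences under the alternatives, 564 kept their direction and side of the threshold, 61 fell short of it, 36 newly passed it and 7 reversed. The cause was not tested. The count of members called in PCs against non-PCs of GRKO, 8, became 3 at a false discovery rate of 1% and 4 with library totals, and ranged from 4 (without GRKO PC replicate 2) to 9 with a library left out. Between genotypes in PCs, 0 became 1 with DESeq2 (Plcg2) and 7 with no filter on low counts, and ranged from 0 to 1 with a library left out. In non-PCs, 5 became 8 with no filter and ranged from 5 to 7. The interaction, 4, became 0 at 1% and ranged from 0 to 5. In WT sorts, 7 ranged from 6 to 7 with a library left out, and was 6 at 1% and with library totals (Gnat3 lost in both), 8 with DESeq2 and 9 with no filter. Itpr3 reversed in the interaction with library totals (−0.19). With a library left out, its interaction ranged from −0.04 to 0.21 and that of Sucnr1 from −2.27 to 0.53, and Itpr3 between genotypes in non-PCs ranged from −0.08 to 0.14. Over all genes, the 421 called between genotypes in PCs became 0 at 1% and with those groups alone, 2 with library totals, 977 with the block, 1464 with DESeq2 and 1780 with no filter, and scaling without Lyz1 and Defa genes moved their split toward lower calls. The 5116 between GRKO sorts became 10784 with library totals, and at 1% the 4869 between genotypes in non-PCs became 3001 and the 2445 of the interaction 954 (1561 without WT non-PC replicate 2).

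With the replicate number as a block, 9 members were called between the WT sorts and 9 between the GRKO sorts, 5 in the interaction (Pik3cg added), 6 between genotypes in non-PCs (Gnat3 added) and 1 in PCs (Gnat3). Outside the WT sorts the numbers were not taken to pair libraries. The correlations of the deviations of same-numbered libraries were 0.0129, 0.262 and 0.465 between the GRKO sorts, 0.0975, 0.156 and −0.098 between genotypes in PCs, and −0.0943, 0.166 and −0.0851 in non-PCs. Depth limits Gnb3, Gnat3, Gng13 and Sucnr1, which had 0, 1, 2 and 6 counts in WT non-PCs.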
